A study of Mus musculus with 19 samples.

Results

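Collagen genes were taken as the protein-coding genes whose symbol is Col, a number, the letter a and a number, after the Ensembl identifiers of the count table had been matched to mouse gene names. There were 44 such genes among the 34807 genes of the table, and all 44 passed the filter on low counts that left 32031 genes. By the structure of their protein, 11 are fibrillar, 6 belong to the basement membrane network of collagen IV, 9 are fibril-associated collagens with interrupted triple helices (FACIT) and 18 are of other kinds. The choice used names alone and no measured value.

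The study asked how the epidermal cell in which a squamous tumour starts shapes the tumour. Bulk poly(A) RNA was sequenced from 6 Ivl, 5 K5 and 4 K14 tumours and from 4 samples of normal skin, 19 libraries in all. Every tumour carried BRAFV600E, a permanently active form of a kinase of the MAPK pathway, switched on in female C57BL/6J mice by a drug-inducible Cre recombinase at an age of 7 to 20 weeks. In Ivl mice Cre was driven by the promoter of involucrin, which is active in committed and differentiating keratinocytes, and the inducer on the shaved back was tamoxifen. In K5 and K14 mice it was driven by the keratin 5 or keratin 14 promoter, active in basal keratinocytes, and the inducer was 4-hydroxytamoxifen. The normal skin came from wild-type control littermates without the activated kinase. Tumours were collected whole at the clinical endpoint, which Ivl mice reached later, and Ivl tumours also grew on paws, ears and lips while K5 and K14 tumours grew on the back, so cell of origin, age and body site cannot be told apart in these libraries. After a comparison with each other, the K5 and K14 tumours formed 1 group of 9 (K5/K14).

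Collagens are proteins of 3 chains wound into a triple helix, and most are secreted as procollagens, trimmed and cross-linked outside the cell. Fibrillar collagens, made mainly by fibroblasts, give the dermis its tensile strength. Keratinocytes rest on a basement membrane of collagen IV and laminin, which anchoring fibrils of collagen VII tie to the dermis and to which hemidesmosomes holding collagen XVII attach. FACIT and beaded filament collagens sit on the surface of fibrils or around cells and tune how the matrix is packed.

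Total counts per library lay between 45715309 and 72609771. Levels are given in CPM, the counts of a gene for every 1000000 counts of the library after TMM scaling, and differences between groups as log2 fold changes (log2 units) with their standard error (SE) and adjusted p from edgeR. Nothing in the sources says that the libraries of a group came from separate animals, so the p-values measure the spread between these samples. Some features of the libraries touch every result. The authors adjusted the table for a sequencing batch, without naming its libraries in the labels, and Ivl tumours 1, 2 and 3 and K5 tumour 1 carried a trace of such an adjustment as a set. Averaged over these 4 libraries, 33 of 34 collagen genes above 2 CPM lay within 0.1 log2 of the average of the other 15, skin included, as did 96.6% of all 13954 genes above that level. The set holds no skin library. Over all libraries, Ivl tumours 1, 2 and 3 entered the comparison with skin in a set whose average lay near one that included skin. How far this moved the Ivl values toward skin was not tested. Main results are therefore also given within the other 15 libraries, which hold 3 Ivl tumours. The 4 skin libraries also differed from each other in fibroblast markers. The summed level of 10 fibroblast markers was 192 CPM in skin 2 and 429.8 CPM in skin 1, against 1824 and 2571 CPM in skin 3 and 4. It ranged from 335 to 1716 CPM in Ivl tumours and from 651 to 1472 CPM in K5/K14 tumours. In bulk tissue, fewer cells of a type and less RNA per cell cannot be told apart.

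Compared with skin, Ivl tumours had 7 collagen genes higher and 7 lower at an adjusted p under 0.05. Of all genes tested, 20.4% were higher and 15.5% lower in that comparison, and 7 of 44 is near those shares. In K5/K14 tumours 12 collagen genes were higher and 13 lower, where 23.2% of all genes were higher and 38.9% lower. Higher in both tumour groups were 7 genes (Col6a4, Col7a1, Col8a1, Col12a1, Col13a1, Col18a1 and Col25a1), of which 6 belong to the kinds outside the fibrillar, basement membrane and FACIT classes. Lower in both were 6 genes, among them all 4 minor chains of collagen IV. Both comparisons used the same 4 skin libraries. The median log2 fold change of the 44 genes was -0.77 in Ivl tumours, beside -0.46 for all genes, and -0.13 in K5/K14 tumours, beside -0.60. Within the 15 libraries Ivl tumours had 8 collagen genes higher (22.2% of all genes) and 18 lower (32.7% of all genes). The count of lower genes in Ivl tumours changed with single libraries: it was 19 without Ivl tumour 3, and between 1 and 3 without Ivl tumour 1, 4, 5 or 6 or skin 1 or 3. The share of all genes called in these fits was not determined, so the counts may follow calls in general.

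**Figure D1:**
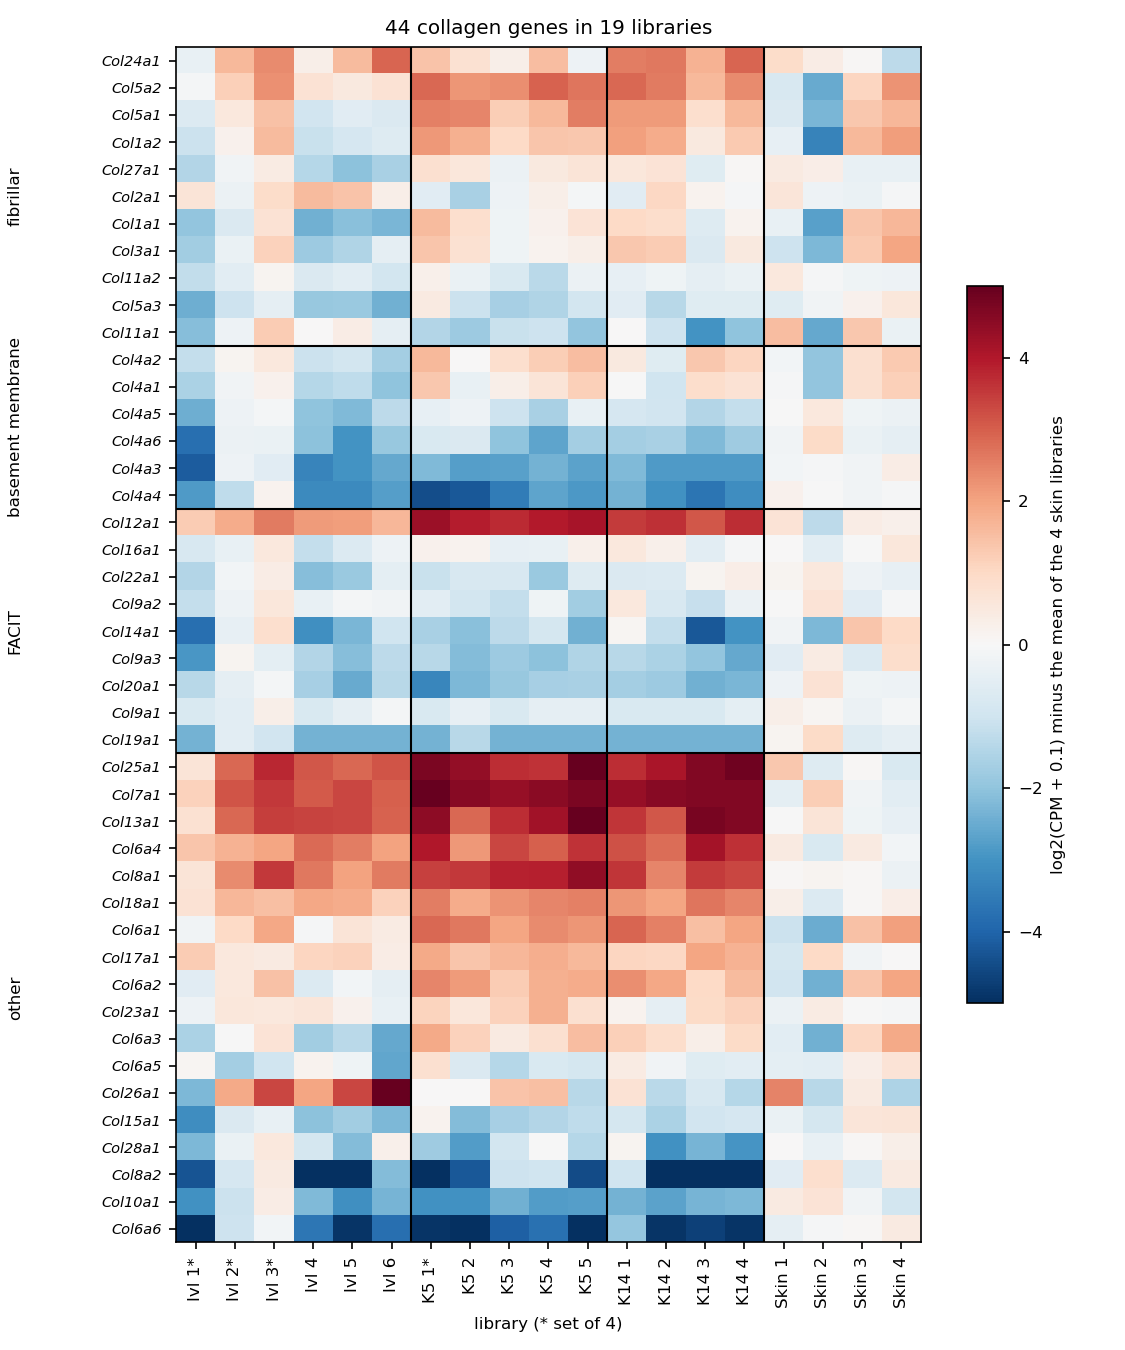
Each row is a collagen gene, grouped by class and ordered within it by its fold change in K5/K14 tumours, and each column a library. Colour gives log2(CPM + 0.1) minus the mean of the 4 skin libraries, with values beyond 5 in either direction drawn at the end of the scale. Col7a1, Col12a1 and Col18a1 are red in nearly every tumour, Col4a3 and Col4a4 are blue in most, and the fibrillar genes Col1a1, Col1a2 and Col3a1 vary among the skin libraries themselves.

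**Figure D2:**
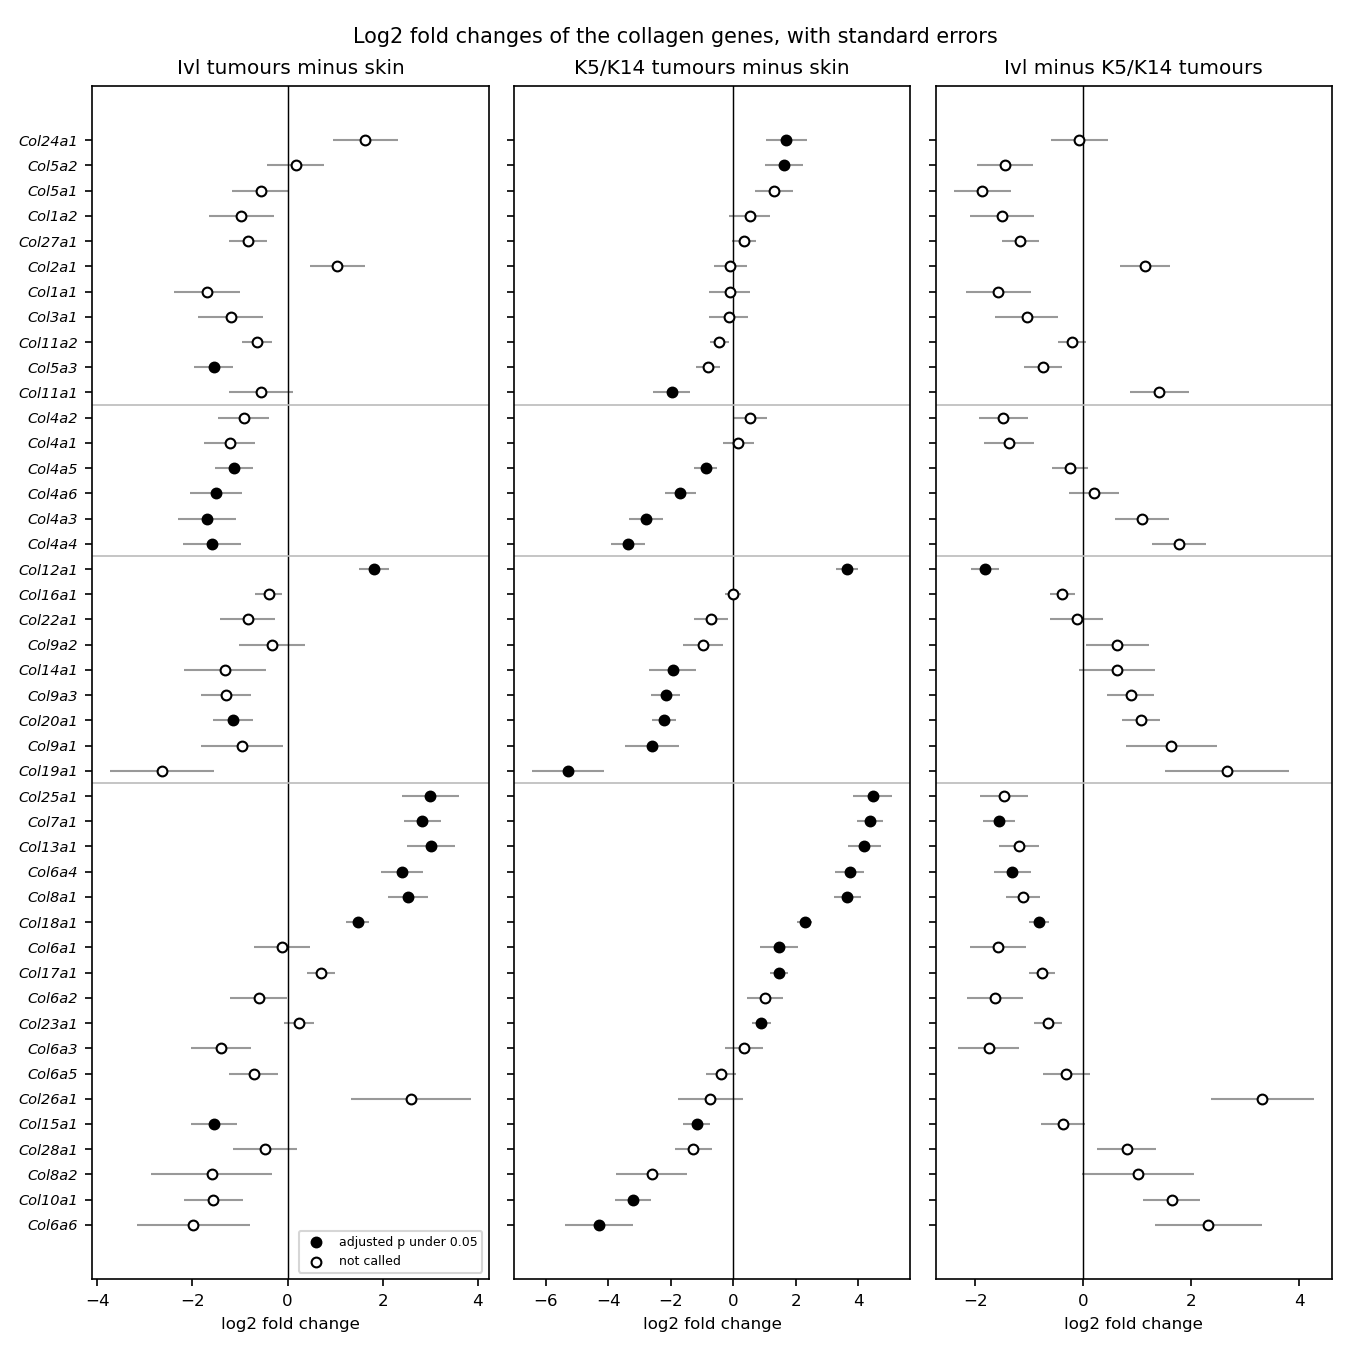
Log2 fold changes of the 44 collagen genes with their standard errors as bars, for Ivl tumours minus skin, K5/K14 tumours minus skin, and Ivl minus K5/K14 tumours. Filled points passed an adjusted p under 0.05, and grey lines divide the fibrillar, basement membrane, FACIT and other genes from top to bottom. There are 14 filled points in the first panel, 25 in the second and 4 in the third.

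Col7a1 rose in both tumour groups and Col17a1 in K5/K14 tumours. Col7a1 encodes the only chain of collagen VII, the anchoring fibril, and lies at chr9:108953586-108984875 (GRCm38). The 4 skin libraries held 32.3, 106, 40.3 and 31.5 CPM. The Ivl tumours ranged from 101 to 525 CPM (median 394), and the K5/K14 tumours ranged from 934 to 1426 CPM (median 1071). Skin 2, the highest of the skin libraries, lay above Ivl tumour 1, and every other tumour lay above all skin. The change against skin was 2.83 ± 0.39 log2 units (SE, adjusted p = 2.53e-05) in Ivl tumours and 4.39 ± 0.42 log2 units (SE, adjusted p = 9.68e-07) in K5/K14 tumours, with means of 373 ± 145 CPM (SD, n = 6), 1103 ± 149 CPM (SD, n = 9) and 52.5 ± 35.8 CPM in skin (SD, n = 4). In the 15 libraries they were 2.94 log2 units (adjusted p = 2.94e-06) and 4.34 log2 units (adjusted p = 3.59e-08). Col17a1 (chr19:47646344-47692094) encodes the transmembrane collagen of hemidesmosomes. Its levels were 282, 1026, 456 and 527 CPM in skin, 658 to 1252 CPM (median 908) in Ivl tumours and 1059 to 1991 CPM (median 1637) in K5/K14 tumours. Each K5/K14 tumour exceeded each skin library, while skin 2 lay within the range of the Ivl tumours. Col17a1 rose in K5/K14 tumours by 1.45 ± 0.29 log2 units (SE, adjusted p = 0.00036) and was not called in Ivl tumours, at 0.70 log2 units (adjusted p = 0.0684). Scaling to fibroblast markers removed the Col17a1 call at 0.98 log2 units (adjusted p = 0.313). These markers summed to 192 to 2571 CPM among the skin libraries. The scaling sets a gene against fibroblast content, so it does not test a rise in keratinocytes. Keratinocyte markers moved with both genes: of 6 basal keratinocyte markers 4 were higher in Ivl tumours, and 5 higher and 1 lower in K5/K14 tumours, with summed levels of 3819.8 to 8051 CPM in skin and 9636 to 64561 CPM in tumours, and the part of keratinocyte number in the rise was not tested.

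The promoter of Col7a1 is shown because this gene had one of the largest rises of the family, beside that of Col6a4, a rare chain that rose with it. Both are RefSeq windows of 300 bases (250 before the start of the gene and 50 after it, GRCm38.p6), read in the direction of the gene. Capitals mark CCAAT (the CCAAT box), GGGCGG (the core of the GC box), TATAAA (the TATA box) or TGANTCA (the AP-1 element), on either strand. The Col7a1 window is chr9:108953336-108953635 on the plus strand and the Col6a4 window is chr9:106096642-106096941 on the minus strand.
Col7a1: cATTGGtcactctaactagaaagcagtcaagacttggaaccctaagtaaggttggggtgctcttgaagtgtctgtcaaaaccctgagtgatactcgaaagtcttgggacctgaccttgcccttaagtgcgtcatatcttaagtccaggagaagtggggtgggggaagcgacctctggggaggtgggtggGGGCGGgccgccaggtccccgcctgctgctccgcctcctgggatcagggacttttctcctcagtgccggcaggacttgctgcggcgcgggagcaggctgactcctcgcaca
Col6a4: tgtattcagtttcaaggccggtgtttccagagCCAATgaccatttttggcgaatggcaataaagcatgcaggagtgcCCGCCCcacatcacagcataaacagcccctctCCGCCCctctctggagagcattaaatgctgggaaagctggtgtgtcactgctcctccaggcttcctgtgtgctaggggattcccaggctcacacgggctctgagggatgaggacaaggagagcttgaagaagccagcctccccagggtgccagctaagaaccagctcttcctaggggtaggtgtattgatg
The Col7a1 window held GGGCGG once and CCAAT once on the other strand, and its GC content was 58.7%. In Col6a4 the window held CCAAT once and GGGCGG on the other strand at 2 places. Neither window held TATAAA or TGANTCA. Windows were at hand for 35 of the 44 collagen genes (38 windows, since some genes had several starts). Among all 32851 windows, CCAAT stood in 37.4%, GGGCGG in 35.7%, TATAAA in 13.6% and TGANTCA in 7.81%, and among the 38 collagen windows in 13, 23, 5 and 1. These are matches of letters and not measured binding.

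**Figure D3:**
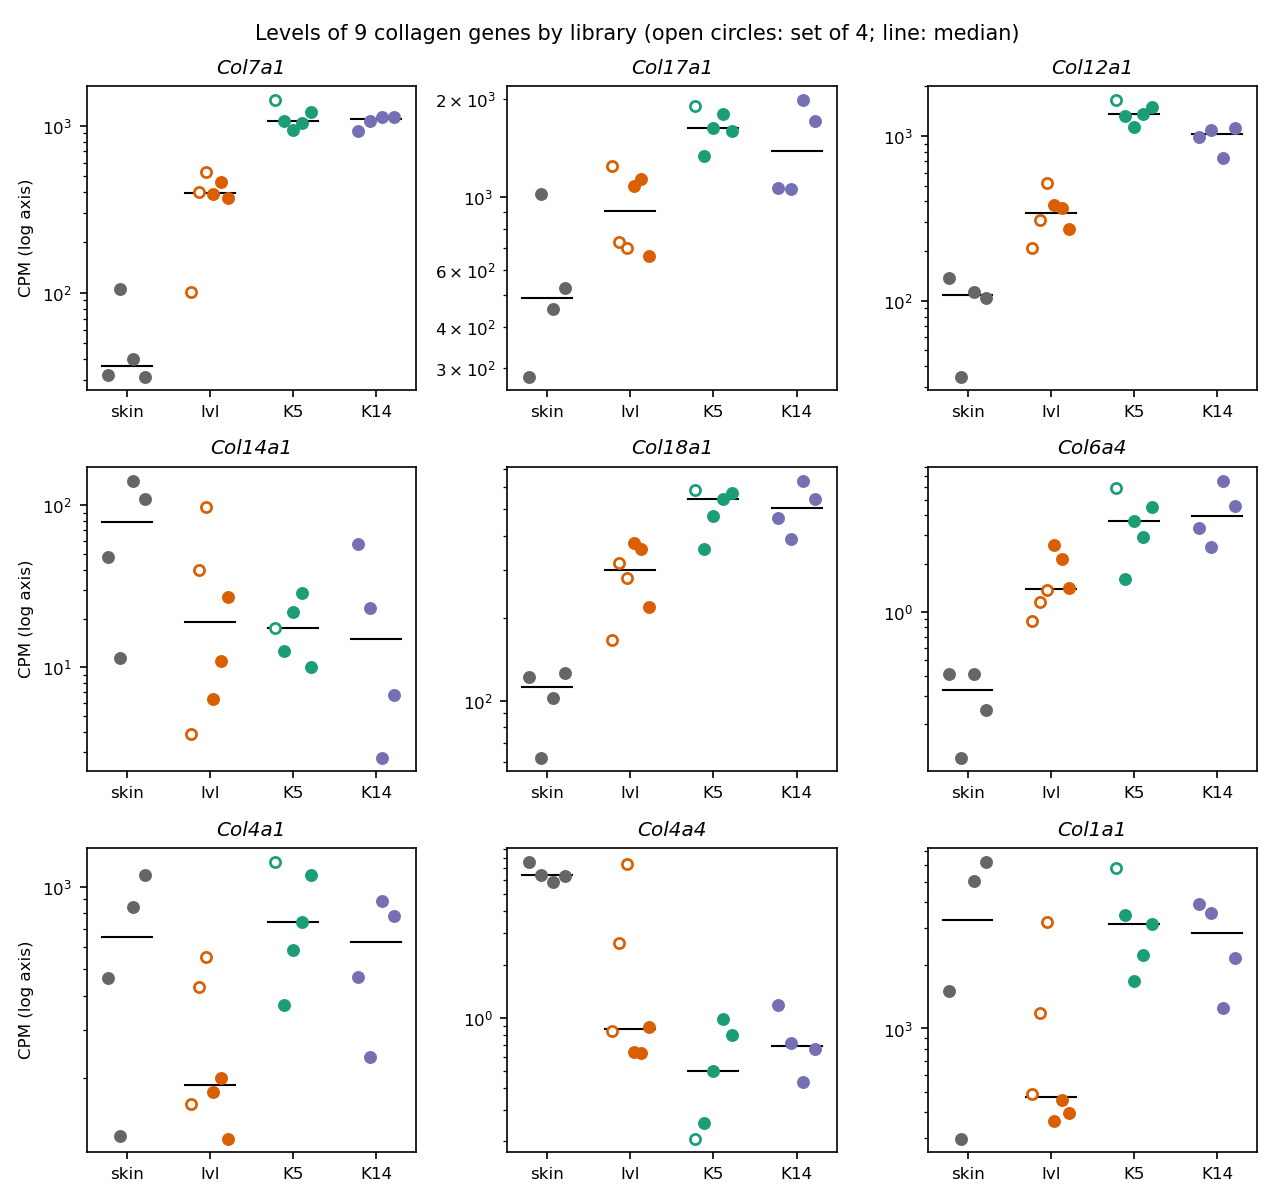
Levels of 9 collagen genes in CPM on a log axis, 1 circle per library, with skin in grey, Ivl tumours in orange, K5 tumours in green and K14 tumours in purple. Open circles are the set of 4 libraries (Ivl tumours 1, 2 and 3 and K5 tumour 1) and the line is the median of the group. Col7a1 and Col12a1 step up from skin to Ivl to K5 and K14 tumours, Col4a4 falls to under 1.5 CPM in all tumours but Ivl 2 and 3, and Col1a1 spreads over more than 10-fold among the skin libraries.

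Among the FACIT genes Col12a1 and Col14a1, whose products both coat collagen I fibrils, differed in opposite directions. Col12a1 (chr9:79598991-79718831) held 138, 34.5, 112 and 104 CPM in skin, 209 to 519 CPM (median 338) in Ivl tumours and 735 to 1658 CPM (median 1141) in K5/K14 tumours. The 3 ranges did not touch. It rose by 1.82 ± 0.32 log2 units (SE, adjusted p = 0.000195) in Ivl and 3.64 ± 0.35 log2 units (SE, adjusted p = 9.68e-07) in K5/K14 tumours, a mean of 1212 ± 279.8 CPM (SD, n = 9) against 97.3 ± 44.2 CPM (SD, n = 4). The 15 libraries gave 1.8 log2 units (adjusted p = 0.000401) and 3.57 log2 units (adjusted p = 2.51e-07). Col14a1 (chr15:55307750-55520803) was at 47.8, 11.4, 141 and 109 CPM in skin, 3.87 to 97.6 CPM (median 19.1) in Ivl tumours and 2.78 to 57.3 CPM (median 17.6) in K5/K14 tumours. Its ranges overlapped throughout, with skin 2 inside those of the tumours. Col14a1 fell in K5/K14 tumours with a change of -1.94 ± 0.77 log2 units (SE, adjusted p = 0.0358), and this call was lost without K14 4, K5 2, K5 5, skin 3 and skin 4 (adjusted p up to 0.138) and with scaling to fibroblast markers at -1.37 log2 units (adjusted p = 0.0569). In Ivl tumours it was not called at -1.32 log2 units (adjusted p = 0.213).

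Col20a1 was at 3.02, 6.0, 3.04 and 2.97 CPM in skin and 0.286 to 1.08 CPM (median 0.88) in K5/K14 tumours, where it fell with a change of -2.22 ± 0.38 log2 units (SE, adjusted p = 9.39e-05), and in Ivl tumours with changes of -1.15 log2 units (adjusted p = 0.0418), a call lost without Ivl 1, Ivl 4, Ivl 5, Ivl 6, skin 1, skin 2 and skin 3 (adjusted p up to 0.168). With scaling to fibroblast markers the fall in Ivl tumours was larger, at -1.54 log2 units (adjusted p = 0.131), and no longer passed. Col9a3, which encodes a chain of the cartilage collagen IX, fell in K5/K14 tumours with a change of -2.17 ± 0.48 log2 units (SE, adjusted p = 0.000837) from 1.04, 2.12, 0.946 and 2.97 CPM in skin. Its exons share 234 bases with Tcfl5 on the opposite strand, and whether the counting used strand is not given in the sources used here. Col9a1 and Col19a1 were also called lower in K5/K14 tumours (adjusted p = 0.0139 and 0.000749), but on few reads: Col9a1 had 4 to 8 counts per skin library and at most 1 in K5 and K14 tumours, and Col19a1 had 25 to 80 counts in skin and 0 to 4 in K5/K14 tumours. Markers of chondrocytes, cells that make collagen IX, were at 1.34 to 11.8 CPM in sum in skin, 0.231 to 10.4 CPM in Ivl tumours and 0.0958 to 2.19 CPM in K5/K14 tumours, with 1 of 6 called lower in Ivl and 4 of 6 in K5/K14 tumours. Of all genes tested, 15.5% were lower in Ivl and 38.9% in K5/K14 tumours. The part of chondrocytes in the change was not tested. Col16a1 showed -0.40 log2 units (adjusted p = 0.239) and -0.01 log2 units (adjusted p = 0.976), and Col9a2 and Col22a1 were not called in either comparison. Among the 15 libraries Ivl tumours were also lower in Col9a3, at -1.94 log2 units (adjusted p = 0.00284), in Col22a1, at -1.69 log2 units (adjusted p = 0.0357), and in Col19a1 (adjusted p = 0.0015).

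The 2 multiplexins moved apart. Col18a1 (chr10:77052178-77166548), whose product sits in basement membranes and yields the fragment endostatin, was at 122, 62.1, 102 and 126 CPM in skin, 166 to 375 CPM (median 299) in Ivl tumours and 359 to 634 CPM (median 544) in K5/K14 tumours. All tumours lay above all skin libraries. It rose by 1.47 ± 0.24 log2 units (SE, adjusted p = 8.74e-05) and 2.3 ± 0.24 log2 units (SE, adjusted p = 1.46e-06). Its relative Col15a1, found near the basement membranes of vessels and muscle, was at 132, 91.6, 254 and 260.0 CPM in skin, 19.7 to 132 CPM (median 45.5) in Ivl tumours and 36.9 to 191 CPM (median 70.4) in K5/K14 tumours. Col15a1 fell with a change of -1.55 ± 0.48 log2 units (SE, adjusted p = 0.0191) and -1.17 ± 0.44 log2 units (SE, adjusted p = 0.0274), with ranges that overlapped. Both calls were lost without skin 3 and skin 4 (adjusted p up to 0.0596 and 0.0978) and with scaling to fibroblast markers at -1.03 log2 units (adjusted p = 0.278) and -0.75 log2 units (adjusted p = 0.355). Markers of skeletal muscle, which lies under mouse skin, summed to 2218 to 6798 CPM in skin, 4.72 to 4044 CPM in Ivl tumours and 5.76 to 462 CPM in K5/K14 tumours, with 0 of 6 called lower in Ivl and 6 of 6 in K5/K14 tumours. Of all genes tested, 15.5% were lower in Ivl and 38.9% in K5/K14 tumours. The part of skeletal muscle in the fall of Col15a1 was not tested.

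All 4 transmembrane collagens were higher in K5/K14 tumours. Col13a1 (chr10:61838236-61979108), a collagen of cell adhesion sites, was at 1.77, 2.86, 1.53 and 1.31 CPM in skin, 3.1 to 20.4 CPM (median 16.7) in Ivl tumours and 13.8 to 59.1 CPM (median 34.4) in K5/K14 tumours. Ivl tumour 1 was lowest among the tumours and still above each skin library. The change was 3.01 ± 0.50 log2 units (SE, adjusted p = 0.000133) and 4.2 ± 0.53 log2 units (SE, adjusted p = 4.55e-06). Col25a1 (chr3:130131501-130599877), better known from neurons, held 0.923, 0.157, 0.319 and 0.137 CPM in skin, 0.523 to 5.37 CPM (median 3.1) in Ivl tumours and 4.78 to 14.4 CPM (median 8.46) in K5/K14 tumours, and rose by 3.0 ± 0.60 log2 units (SE, adjusted p = 0.000622) and 4.47 ± 0.63 log2 units (SE, adjusted p = 1.26e-05). Skin 1 overlapped Ivl tumour 1 for this gene. Col23a1 changed least, by 0.90 ± 0.30 log2 units (SE, adjusted p = 0.0141) in K5/K14 and 0.24 log2 units (adjusted p = 0.523) in Ivl tumours, where it was not called. Scaling to fibroblast markers left Col13a1 and Col25a1 called in both tumour groups and removed the call of Col23a1 at 0.56 log2 units (adjusted p = 0.54).

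The short-chain network collagens divided by gene. Col8a1 (chr16:57624258-57754737), a chain of the collagen VIII lattice around vessels, held 5.52, 5.83, 5.49 and 4.32 CPM in skin and ranged from 8.24 to 61.4 CPM (median 29.9) in Ivl tumours and 28.6 to 117 CPM (median 61.6) in K5/K14 tumours. The skin libraries lay close together and below every tumour. It rose by 2.53 ± 0.42 log2 units (SE, adjusted p = 0.000116) and 3.66 ± 0.43 log2 units (SE, adjusted p = 3.03e-06). Its partner chain Col8a2 was at 8.81, 23.3, 8.02 and 17.7 CPM in skin and 0.238 to 6.49 CPM (median 0.497) in K5/K14 tumours, and was not called at -2.61 log2 units (adjusted p = 0.0545), though it was with scaling to fibroblast markers, at -3.72 log2 units (adjusted p = 0.00507), and with DESeq2, at -2.73 log2 units (adjusted p = 0.0325). Col10a1, the collagen of cartilage growth zones, held 2.4, 2.82, 1.51 and 0.868 CPM in skin and 0.127 to 0.292 CPM (median 0.184) in K5/K14 tumours, fell there with a change of -3.2 ± 0.57 log2 units (SE, adjusted p = 0.000131), and was not called in Ivl tumours, at -1.56 log2 units (adjusted p = 0.0558). In Ivl tumours it was lower among the 15 libraries, at -3.03 log2 units (adjusted p = 7.62e-05), with scaling to fibroblast markers, at -2.54 log2 units (adjusted p = 0.0238), and with DESeq2, at -1.71 log2 units (adjusted p = 0.0255).

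Collagen VI forms beaded filaments from Col6a1, Col6a2 and most often Col6a3. In skin Col6a1 (chr10:76708792-76726168) held 54.3, 20.5, 313 and 477 CPM, Col6a2 held 68.4, 24.8, 344 and 525 CPM and Col6a3 held 246, 68.3, 733 and 1347 CPM. Skin 1 and 2, the libraries low in fibroblast markers, were low in all 3 genes. In Ivl tumours Col6a1 ranged from 102 to 432 CPM (median 164), Col6a2 ranged from 81.3 to 364 CPM (median 109) and Col6a3 ranged from 61.2 to 578 CPM (median 130.0). In K5/K14 tumours the medians were higher, with 325 to 866 CPM (median 587) for Col6a1, 266 to 725 CPM (median 482) for Col6a2 and 437 to 1350.2 CPM (median 695) for Col6a3. Skin 4 lay within these ranges for all 3 genes. Against skin only Col6a1 was called, in K5/K14 tumours, at 1.47 ± 0.60 log2 units (SE, adjusted p = 0.0415). That call was lost within the 15 libraries (adjusted p = 0.0619) and without K14 1, K14 2, K5 1, K5 2, K5 4, skin 1 and skin 2 (adjusted p up to 0.114). Col6a2 was at 1.02 log2 units (adjusted p = 0.134) and Col6a3 at 0.36 log2 units (adjusted p = 0.616), and in Ivl tumours the 3 genes were at -0.12 log2 units (adjusted p = 0.881), -0.61 log2 units (adjusted p = 0.399) and -1.4 log2 units (adjusted p = 0.0899). Calls were gained by Col6a2 in K5/K14 tumours with scaling to fibroblast markers, at 2.29 log2 units (adjusted p = 0.00891), and by Col6a3 in Ivl tumours, lower among the 15 libraries, at -2.53 log2 units (adjusted p = 0.0101), and with DESeq2, at -1.52 log2 units (adjusted p = 0.0401). The alternatives to Col6a3 lie in a cluster on chromosome 9. Col6a4 (chr9:105989454-106096783), whose promoter is printed above, was at 0.409, 0.124, 0.412 and 0.244 CPM in skin, 0.876 to 2.6 CPM (median 1.39) in Ivl tumours and 1.59 to 6.56 CPM (median 3.68) in K5/K14 tumours, and rose by 2.41 ± 0.44 log2 units (SE, adjusted p = 0.000283) and 3.73 ± 0.46 log2 units (SE, adjusted p = 3.6e-06). All tumours exceeded all skin, at levels far under those of Col6a3, and Col6a4 shares exon bases with the antisense genes Gm36993 (127) and Gm47575 (162). Col6a6 in the same cluster fell in K5/K14 tumours with a change of -4.3 ± 1.09 log2 units (SE, adjusted p = 0.0029), with 6.63, 8.93, 9.61 and 12.5 CPM in skin and 0 to 2.33 CPM (median 0.209) in the tumours, while Col6a5 was not called at -0.39 log2 units (adjusted p = 0.48). In Ivl tumours Col6a6 was not called over all libraries, at -1.98 log2 units (adjusted p = 0.178), and was lower within the 15, at -4.28 log2 units (adjusted p = 0.0145).

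The main fibrillar collagens of the dermis did not pass edgeR's test against skin over all libraries. Col1a1 (chr11:94936224-94953042) held 1513, 299, 5036 and 6209.9 CPM in skin, 363 to 3211 CPM (median 472) in Ivl tumours and 1252 to 5817 CPM (median 3136) in K5/K14 tumours. The lowest and highest skin libraries enclosed every tumour. Its change was -1.68 ± 0.69 log2 units (SE, adjusted p = 0.0634) in Ivl and -0.11 ± 0.65 log2 units (SE, adjusted p = 0.892) in K5/K14 tumours. For Col1a2, the other chain of collagen I, skin held 768, 101, 3133 and 4319.9 CPM and the changes were -0.97 log2 units (adjusted p = 0.245) and 0.53 log2 units (adjusted p = 0.486). Col3a1, which joins collagen I in mixed fibrils, held 766, 334, 3953 and 6242 CPM in skin, and its changes were -1.19 log2 units (adjusted p = 0.161) and -0.15 log2 units (adjusted p = 0.85). For these 3 genes the values in K5/K14 tumours turned positive for Col1a1 (1.02) and Col3a1 (1.1) with scaling to fibroblast markers, where Col1a2 was called higher at 1.83 log2 units (adjusted p = 0.0434), while scaling by library totals turned Col1a2 negative (-0.21). Col1a1 was lower in Ivl tumours among the 15 libraries, at -3.01 log2 units (adjusted p = 0.00457), and so it was without Ivl tumour 3 or skin 2 alone and with DESeq2, at -1.82 log2 units (adjusted p = 0.0218).

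Collagen V, which starts fibrils and limits their width, stood above its level in skin in K5/K14 tumours for 1 of its 3 genes. Col5a2 (chr1:45374321-45503282) was at 60.3, 18.4, 223 and 499 CPM in skin and 322 to 818 CPM (median 646) in K5/K14 tumours, and rose by 1.63 ± 0.61 log2 units (SE, adjusted p = 0.0272). Skin 3 and 4 came nearest to the tumours, skin 4 within their range, and without skin 1 the call was lost (adjusted p = 0.0808). Col5a1 was at 79.9, 26.5, 328 and 414 CPM in skin and 233 to 778 CPM (median 575) in K5/K14 tumours, and missed the threshold at 1.31 log2 units (adjusted p = 0.0671), but passed with scaling to fibroblast markers, at 2.5 log2 units (adjusted p = 0.00508), and with DESeq2, at 1.21 log2 units (adjusted p = 0.0466). In Ivl tumours Col5a1 and Col5a2 were at -0.56 log2 units (adjusted p = 0.444) and 0.17 log2 units (adjusted p = 0.822). Col5a3, the third chain, held 116, 158, 203 and 265 CPM in skin and 32.8 to 130.2 CPM (median 47.7) in Ivl tumours, and fell there with a change of -1.55 ± 0.41 log2 units (SE, adjusted p = 0.0072), a call that every omission of 1 library left in place but that scaling to fibroblast markers ended, at -1.27 log2 units (adjusted p = 0.176). Of the less common fibrillar genes, Col24a1 rose in K5/K14 tumours by 1.7 ± 0.66 log2 units (SE, adjusted p = 0.0315) and Col11a1, a cartilage collagen also made by activated fibroblasts, fell with a change of -1.97 ± 0.59 log2 units (SE, adjusted p = 0.00848). Col11a1 held 43.3, 2.45, 38.6 and 11.9 CPM in skin and 1.77 to 15.2 CPM (median 5.39) in K5/K14 tumours. Skin 2 and 4 overlapped the tumours for Col11a1, and its call was lost without skin 1 (adjusted p = 0.0509). The call of Col24a1 was lost without K14 1, K14 4, skin 2, skin 3 and skin 4 (adjusted p up to 0.0941) and with scaling to fibroblast markers at 1.35 log2 units (adjusted p = 0.144). Col2a1, Col11a2 and Col27a1 were not called against skin over all libraries, while among the 15 Ivl tumours were lower in Col27a1, at -1.75 log2 units (adjusted p = 0.000388), and Col11a2, at -0.80 log2 units (adjusted p = 0.0392). In K5/K14 tumours Col5a3 was at -0.81 log2 units (adjusted p = 0.0697), and was lower among the 15, at -1.06 log2 units (adjusted p = 0.00104).

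In the basement membrane class, the 4 restricted chains were called lower in both tumour groups and the 2 ubiquitous chains were not called over all libraries. The 6 genes of collagen IV lie in pairs, head to head. Col4a1 and Col4a2 on chromosome 8 overlap by 22 bases at their starts, Col4a4 and Col4a3 on chromosome 1 are 71 bases apart, and Col4a6 and Col4a5 on chromosome X are 1308 bases apart. Col4a1 (chr8:11198423-11312826) held 465, 122, 842 and 1105 CPM in skin, 119.9 to 554 CPM (median 188) in Ivl tumours and 238 to 1234 CPM (median 744) in K5/K14 tumours. Col4a2 (chr8:11312805-11449287) held 229, 64, 447 and 635 CPM, 78 to 363 CPM (median 127) and 167 to 784 CPM (median 529.5) in the same groups. Skin 2 lay with the lowest tumours and skin 4 with the highest for both. Neither was called, with -1.21 log2 units (adjusted p = 0.08) and -0.93 log2 units (adjusted p = 0.164) in Ivl tumours and 0.17 log2 units (adjusted p = 0.781) and 0.55 log2 units (adjusted p = 0.35) in K5/K14 tumours. Both were lower in Ivl tumours among the 15 libraries, at -1.94 log2 units (adjusted p = 0.0186) and -1.63 log2 units (adjusted p = 0.0427), and Col4a1 with DESeq2, at -1.34 log2 units (adjusted p = 0.0359).

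Col4a3 (chr1:82586921-82722059) was at 3.51, 3.65, 3.41 and 5.0 CPM in skin, 0.123, 3.25, 2.56, 0.298, 0.398 and 0.578 CPM in Ivl tumours 1 to 6 and 0.455 to 0.764 CPM (median 0.497) in K5/K14 tumours. Col4a4 (chr1:82448423-82586849) was at 7.63, 6.44, 5.86 and 6.36 CPM, 0.845, 2.64, 7.44, 0.635, 0.633 and 0.886 CPM and 0.207 to 1.19 CPM (median 0.668) in the same order. Ivl tumours 2 and 3, which belong to the set of 4, were nearest to skin in both genes, and the other Ivl tumours were near the K5/K14 tumours. The changes in K5/K14 tumours were -2.78 ± 0.54 log2 units (SE, adjusted p = 0.000291) and -3.36 ± 0.55 log2 units (SE, adjusted p = 5.83e-05), and in Ivl tumours -1.69 ± 0.60 log2 units (SE, adjusted p = 0.0347) and -1.59 ± 0.61 log2 units (SE, adjusted p = 0.0474). Within the 15 libraries the Ivl values were -3.19 log2 units (adjusted p = 1.02e-06) and -3.19 log2 units (adjusted p = 2.01e-05). Exons of Col4a3 share 563 bases with C430014B12Rik on the opposite strand. On the X chromosome, Col4a5 was at 21.3, 31.1, 18.9 and 17.5 CPM in skin, 3.86 to 20.4 CPM (median 7.03) in Ivl tumours and 6.97 to 18.1 CPM (median 11) in K5/K14 tumours, and Col4a6 at 14.1, 31, 12.7 and 11.5 CPM, 1.06 to 13 CPM (median 4.0) and 2.47 to 9.65 CPM (median 4.85). Their changes were -1.13 log2 units (adjusted p = 0.0376) and -1.5 log2 units (adjusted p = 0.0417) in Ivl tumours and -0.88 log2 units (adjusted p = 0.0456) and -1.7 log2 units (adjusted p = 0.007) in K5/K14 tumours. The Ivl calls of Col4a5 and Col4a6 were lost without Ivl 1, Ivl 4, Ivl 5, Ivl 6, skin 1, skin 2 and skin 3 (adjusted p up to 0.123 and 0.172), that of Col4a3 without Ivl 4, Ivl 5, Ivl 6, skin 1, skin 2, skin 3 and skin 4 (up to 0.0788) and that of Col4a4 without Ivl 1, Ivl 4, Ivl 5, Ivl 6, K14 2, K14 3, K14 4, K5 3, K5 4, K5 5, skin 1, skin 2, skin 3 and skin 4 (up to 0.0933). In K5/K14 tumours the call of Col4a5 was lost without Ivl 6, K14 2, K14 3, K14 4, K5 3, K5 4, skin 1, skin 2 and skin 3 (up to 0.167), that of Col4a6 without skin 2 (up to 0.0539), and those of Col4a3 and Col4a4 held without each library in turn. With scaling to fibroblast markers the falls were larger but no longer passed for Col4a3, at -1.96 log2 units (adjusted p = 0.0615), and Col4a5, at -1.55 log2 units (adjusted p = 0.0888), in Ivl tumours and for Col4a5, at -1.26 log2 units (adjusted p = 0.0935), in K5/K14 tumours.

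The windows around the starts of the close pairs are shown because each covers both starts of a pair and the 2 pairs differed in their fold changes. The window of Col4a2 (chr8:11312555-11312854, plus strand) and that of Col4a4 (chr1:82586800-82587099, minus strand) are RefSeq windows of GRCm38.p6 marked as above.
Col4a2: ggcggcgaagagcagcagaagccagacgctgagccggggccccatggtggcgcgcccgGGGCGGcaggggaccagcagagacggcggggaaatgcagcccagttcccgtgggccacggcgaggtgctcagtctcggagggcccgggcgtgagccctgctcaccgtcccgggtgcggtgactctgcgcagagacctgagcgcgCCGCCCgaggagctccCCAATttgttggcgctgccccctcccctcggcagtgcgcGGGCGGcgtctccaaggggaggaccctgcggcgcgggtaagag
Col4a4: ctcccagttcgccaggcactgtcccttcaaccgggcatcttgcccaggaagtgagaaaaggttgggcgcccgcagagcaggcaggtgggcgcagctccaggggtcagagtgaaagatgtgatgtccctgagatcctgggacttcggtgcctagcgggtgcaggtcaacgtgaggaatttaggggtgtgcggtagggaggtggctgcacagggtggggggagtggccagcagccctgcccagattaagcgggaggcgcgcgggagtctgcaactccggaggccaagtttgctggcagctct
The window of Col4a1 and Col4a2, the pair that was not called over all libraries, had a GC content of 73.7% and 33 CpG sites, and held CCAAT once and GGGCGG at 3 places. That of Col4a3 and Col4a4, the pair that fell, had a GC content of 63.3% and 14 CpG sites and held none of the 4 motifs. The median GC content of all windows was 52.7%. A pair of windows gives no test, and the letters say nothing of the factors bound.

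The 2 members left, Col26a1 and Col28a1, were not called against skin over all libraries. Col28a1 in K5/K14 tumours was at -1.28 log2 units (adjusted p = 0.0701), and passed with scaling to fibroblast markers, at -1.66 log2 units (adjusted p = 0.0316), and with DESeq2, at -1.4 log2 units (adjusted p = 0.0402). Col26a1, a collagen described from testis and ovary, was at 0.0154, 1.95, 5.41, 2.06, 5.39 and 19.4 CPM in Ivl tumours 1 to 6, at 2.94, 0.112, 0.647 and 0.0878 CPM in skin and 0.104 to 1.47 CPM (median 0.456) in K5/K14 tumours. Its value in Ivl tumours was 2.59 ± 1.26 log2 units (SE, adjusted p = 0.108) over all libraries and 3.24 log2 units (adjusted p = 0.04) within the 15. Ivl tumour 6 was the highest of all libraries and skin 1 the highest of skin.

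Collagen genes took 0.389 to 1.81% of all counts in Ivl tumours (median 0.417%), 0.957 to 2.38% in K5/K14 tumours (median 1.48%) and 0.435 to 3.35% in skin (median 1.71%). The range of skin took in every K5/K14 tumour. Col1a1, Col1a2 and Col3a1 together made up 25.9 to 71.6% of collagen CPM in skin and 27.7 to 61.9% in tumours. To compare levels between genes, CPM were divided by the summed exon length in kb (RPKM). On this scale the highest gene was Col1a1 in skin, with a median of 499 RPKM, and in K5/K14 tumours, with 478. In Ivl tumours it was the keratinocyte collagen Col17a1, with a median of 151 RPKM, ahead of Col3a1 with 88.3 and Col1a1 with 71.9. The ranges of these 3 genes overlapped, since Col17a1 ranged from 109.5 to 208 and Col1a1 ranged from 55.3 to 489 RPKM among Ivl tumours. Summed over the class, fibrillar genes stood at a median of 964 RPKM in skin (118 to 2072), 237 in Ivl tumours (174 to 1211) and 1059 in K5/K14 tumours (485 to 1888). Collagen IV genes had medians of 144, 45.7 and 187 RPKM in the same order. For FACIT genes the medians were 38.9, 36 and 96.9 RPKM, and each K5/K14 tumour, at 60.2 or more, stood above the highest skin library at 47.8. Col12a1 alone had medians of 7.11, 22.2 and 74.9 RPKM in that order. The class as a whole did not rise, since of its 9 genes 1 was called higher and 5 lower in K5/K14 tumours. Of all genes tested, 23.2% were higher and 38.9% lower there. Other collagens had 276, 341 and 717 RPKM, and again all K5/K14 tumours (617 to 988) stood above all skin libraries (139 to 447).

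Ratios between collagen genes of the same library do not depend on how libraries are scaled, and some set tumours apart from skin where the levels of the same genes did not. They are described without a test. The ratio of Col1a1 to Col1a2, whose products join in collagen I, was 3.73, 5.63, 3.04 and 2.72 RPKM per RPKM in skin. It was 1.16 to 1.99 in Ivl tumours and 1.57 to 2.42 in K5/K14 tumours, so no tumour reached the lowest skin library. Col4a1 to Col4a2 was 1.8, 1.7, 1.67 and 1.54 in skin and 1.28 to 1.36 in Ivl and 1.11 to 1.39 in K5/K14 tumours, again without overlap. Both pairs thus held less of the first chain per second chain in tumours. For Col6a1 to Col6a2 the order was the other way round, with 1.51, 1.57, 1.73 and 1.73 in skin, 2.16 to 2.94 in Ivl and 2.07 to 2.71 in K5/K14 tumours. Col5a1 to Col1a1 was 0.0408, 0.0685, 0.0503 and 0.0516 in skin, 0.0865 to 0.154 in Ivl and 0.10 to 0.192 in K5/K14 tumours. The widest step was in Col12a1 to Col14a1, at 1.33, 1.4, 0.367 and 0.442 in skin, 2.45 to 27.6 in Ivl tumours and 7.92 to 122 in K5/K14 tumours. The 2 remaining ratios did overlap. Col3a1 to Col1a1 was 0.339 to 0.747 in skin and 0.409 to 1.98 in tumours, and Col7a1 to Col17a1 was 0.0349 to 0.067 in skin and 0.0471 to 0.585 in tumours, where Ivl tumour 1 alone lay among the skin values. In the 5 ratios without overlap, skin 1 and 2 and the 11 tumours outside the set of 4 lie on the side of their group. This follows from the lack of overlap itself and is no separate result. How often other pairs of genes part skin from tumours was not tested. The level of a ratio depends on the lengths used: with the longest transcript in place of all exons the median of Col1a1 to Col1a2 over all libraries was 0.90 and not 1.89, while the order of the libraries is the same by construction.

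**Figure D4:**
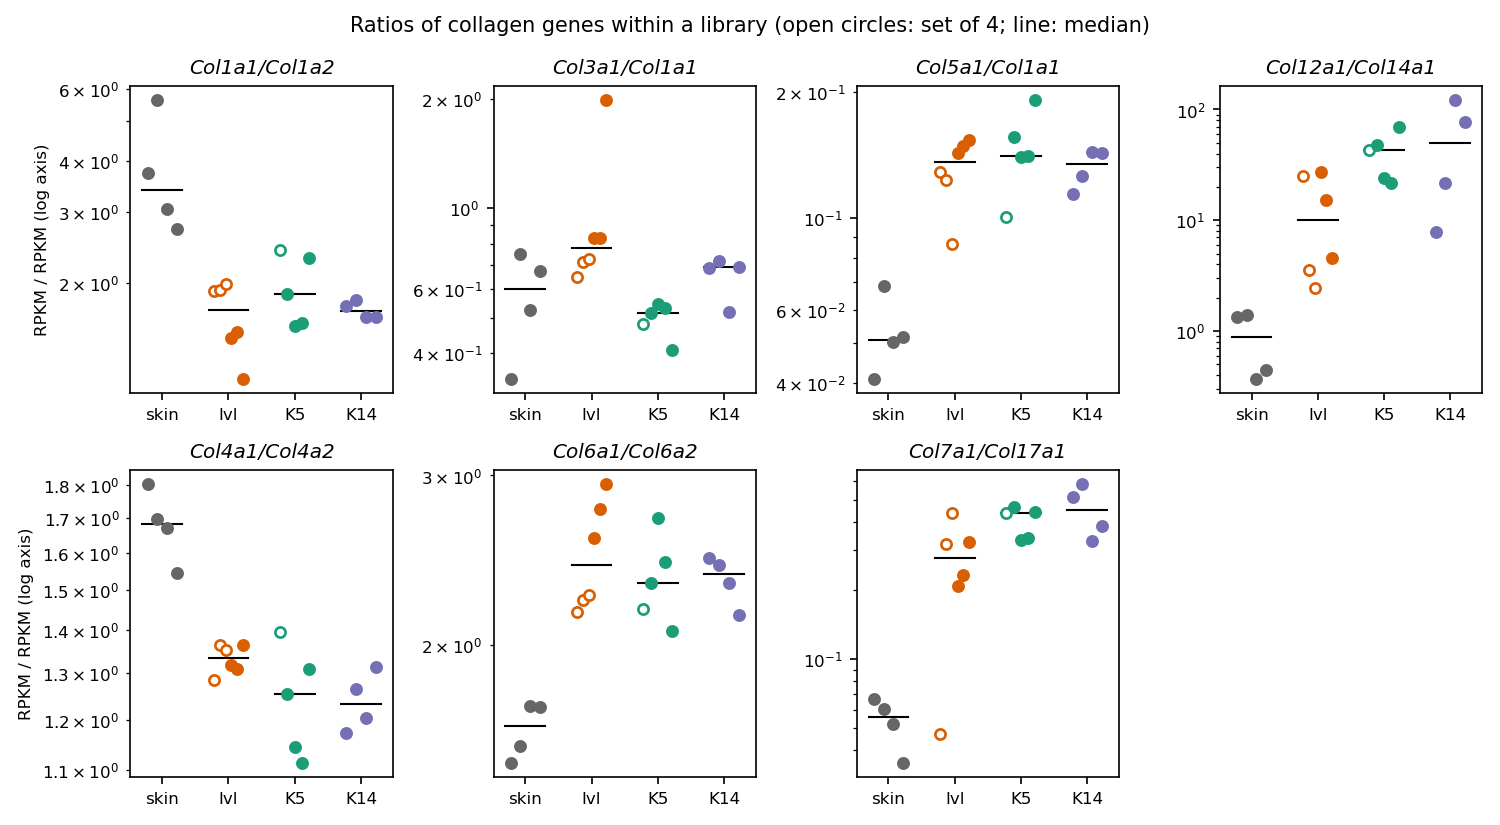
Ratios of 7 pairs of collagen genes, RPKM over RPKM on a log axis, 1 circle per library by group, with open circles for the set of 4 and a line at the median. Skin and tumours do not overlap in Col1a1/Col1a2, Col5a1/Col1a1, Col12a1/Col14a1, Col4a1/Col4a2 and Col6a1/Col6a2, and overlap in Col3a1/Col1a1 and, through Ivl tumour 1, in Col7a1/Col17a1.

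Ivl tumours were then compared with K5/K14 tumours. No collagen gene was higher in Ivl tumours (1.77% of all genes were), and 4 were lower, where 0.593% of all genes were. Col12a1 differed most clearly, at -1.82 ± 0.26 log2 units (SE, adjusted p = 0.00244), and Col7a1 at -1.56 ± 0.30 log2 units (SE, adjusted p = 0.0188), each with all Ivl tumours below all K5/K14 tumours. Col18a1 was at -0.83 ± 0.19 log2 units (SE, adjusted p = 0.0329) and Col6a4 at -1.32 ± 0.34 log2 units (SE, adjusted p = 0.0468), with overlapping ranges. These are genes that both groups raised over skin, and they reached a lower level in Ivl tumours. Among the 15 libraries 2 genes were lower (0.197% of all genes), Col12a1 at -1.77 log2 units (adjusted p = 0.0284) and the fibrillar gene Col27a1 at -2.03 log2 units (adjusted p = 0.00812), while Col7a1 was at -1.39 log2 units (adjusted p = 0.0625), Col18a1 at -0.65 log2 units (adjusted p = 0.273) and Col6a4 at -0.86 log2 units (adjusted p = 0.454). Leaving out 1 library never ended the calls of Col12a1 and Col7a1, but ended that of Col18a1 without Ivl 6, K14 3, K14 4, K5 1, K5 3, K5 4 and K5 5 (adjusted p up to 0.0628) and that of Col6a4 without Ivl 1, Ivl 2, Ivl 3, Ivl 6, K14 3, K14 4, K5 1, K5 3, K5 4, K5 5, skin 3 and skin 4 (up to 0.0922). With scaling to fibroblast markers none of the 4 passed, Col12a1 keeping a log2 fold change of -1.42 (adjusted p = 0.244) and Col7a1 -1.27 (adjusted p = 0.361), with adjusted p of 0.77 for Col18a1 and 0.631 for Col6a4. No fibroblast marker of 10 was itself called between the groups, but their median change was -0.49 log2 units. Their summed level had a median of 519 CPM in Ivl and 869 CPM in K5/K14 tumours, with overlapping ranges. The part of fibroblast number in the 4 calls was not tested. The main stromal chains lay lower in Ivl tumours without passing the test, with -1.57 log2 units (adjusted p = 0.146) for Col1a1, -1.87 log2 units (adjusted p = 0.0679) for Col5a1, -1.76 log2 units (adjusted p = 0.0931) for Col6a3 and -1.48 log2 units (adjusted p = 0.0864) for Col4a2. DESeq2 on the same counts called 17 collagen genes lower and 4 higher in Ivl tumours, where edgeR called 4 and 0. The share of all genes that DESeq2 called was not determined, so its counts are not read as a result about collagen genes. In all, 28 of the 44 genes had a negative value, and the median was -0.38 against 0.11 for all genes.

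Between K5 and K14 tumours no collagen gene passed edgeR's test, and 0% of all genes did. For 1 collagen gene, Col24a1, edgeR gave an unadjusted p under 0.05, with a difference of -1.66 ± 0.57 log2 units (SE, K5 minus K14) and an adjusted p of 0.713, the smallest of the family. DESeq2 called none, with a smallest adjusted p of 0.173, for the same gene. A p that misses the threshold does not show that the groups, of 5 and 4 tumours, are alike.

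Of all genes tested, 20.4% were higher and 15.5% lower in Ivl tumours, and 23.2% higher and 38.9% lower in K5/K14 tumours. The list for hydroxylation and glycosylation of procollagen chains held 15 genes, helper proteins among them. Of these, 5 were higher and none lower in Ivl tumours, and 10 were higher and 1 lower in K5/K14 tumours. The largest rises were in P4ha3, a prolyl 4-hydroxylase subunit, at 1.91 ± 0.42 log2 units (adjusted p = 0.00153) in Ivl and 2.81 ± 0.43 log2 units (adjusted p = 2.73e-05) in K5/K14 tumours, in P3h4, which helps to modify chains in the endoplasmic reticulum, at 1.95 ± 0.33 log2 units (adjusted p = 0.000139) and 2.24 ± 0.32 log2 units (adjusted p = 1.7e-05), and in Ppib, a peptidyl-prolyl isomerase, at 1.8 ± 0.24 log2 units (adjusted p = 2.06e-05) and 2.08 ± 0.23 log2 units (adjusted p = 1.72e-06). Plod2, which hydroxylates telopeptide lysines, fell in K5/K14 tumours with a change of -0.82 ± 0.34 log2 units (adjusted p = 0.0434). Of 6 chaperone and export genes none was called in Ivl tumours, and Fkbp10 rose (1.66 ± 0.40 log2 units, adjusted p = 0.00171) while Tmem38b fell (-0.46 ± 0.18 log2 units, adjusted p = 0.0322) in K5/K14 tumours. Among 8 genes of propeptide removal, Bmp1, the procollagen C-proteinase, rose in both, by 0.64 ± 0.17 log2 units (adjusted p = 0.00518) and 1.79 ± 0.17 log2 units (adjusted p = 9.68e-07). Adamts14, an N-proteinase, fell in Ivl tumours with a change of -1.81 ± 0.60 log2 units (adjusted p = 0.0258), while in K5/K14 tumours Tll1, a relative of Bmp1, rose by 3.36 ± 0.71 log2 units (adjusted p = 0.000659) and Adamts3 (-2.63 ± 0.53 log2 units, adjusted p = 0.000402), Pcolce2 and Tll2 fell. Of 5 cross-linking enzymes only Loxl3 was called, in K5/K14 tumours, at 1.64 ± 0.43 log2 units (adjusted p = 0.00348).

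Of 9 collagen receptors, Itgb1, the shared integrin beta1 chain, rose by 1.04 ± 0.25 log2 units (adjusted p = 0.00283) in Ivl and 1.78 ± 0.24 log2 units (adjusted p = 9.29e-06) in K5/K14 tumours. Ddr2, a receptor kinase of fibroblasts, fell in Ivl tumours with a change of -1.15 ± 0.41 log2 units (adjusted p = 0.0356). Mrc2, which takes up collagen fragments, and Itga2 rose in K5/K14 tumours by 1.43 ± 0.31 log2 units (adjusted p = 0.000735) and 1.46 ± 0.42 log2 units (adjusted p = 0.00666), and Itga10 fell with a change of -0.73 ± 0.30 log2 units (adjusted p = 0.0387). Of 6 collagen-degrading proteases, 3 were higher in both groups and none lower. Mmp13, a collagenase, had means of 68 CPM in Ivl tumours, 234 in K5/K14 tumours and 1.42 in skin, with changes of 5.56 ± 1.12 log2 units (adjusted p = 0.000868) and 7.35 ± 1.21 log2 units (adjusted p = 8.56e-05). The gelatinase Mmp9 rose by 2.4 ± 0.87 log2 units (adjusted p = 0.0406) and 4.85 ± 0.98 log2 units (adjusted p = 0.000515), and Mmp8, a neutrophil collagenase, by 2.66 ± 0.68 log2 units (adjusted p = 0.00521) and 3.36 ± 0.69 log2 units (adjusted p = 0.000461). Between Ivl and K5/K14 tumours 5 of the 34 processing genes and 2 of the 9 receptors were lower in Ivl tumours and none higher: Bmp1 (-1.14 ± 0.14 log2 units, adjusted p = 0.00118), Tll1 (-3.2 ± 0.59 log2 units, adjusted p = 0.0165), P3h1, Plod3, Loxl3, Itga11 and Mrc2. No protease was called there. Of all genes tested, 0.593% were lower and 1.77% higher in that comparison. Values for the processing, receptor and protease genes are given over all libraries only, without the alternatives used for collagen genes.

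The other cell types that whole skin holds also differed. In K5/K14 tumours 3 of 6 hair follicle markers, 3 of 6 adipocyte markers and 3 of 5 Schwann cell markers were lower than in skin and none higher, in Ivl tumours none of these was called, and 6 of 6 suprabasal keratinocyte markers were higher in both groups. Of all genes tested, 15.5% were lower and 20.4% higher in Ivl tumours, and 38.9% lower and 23.2% higher in K5/K14 tumours. Adipocyte markers in sum were not lower in tumours, with medians of 383 CPM in skin, 957 CPM in Ivl and 500 CPM in K5/K14 tumours and overlapping ranges. Of 8 endothelial markers 1 was higher in Ivl tumours, and 2 were higher and 1 lower in K5/K14 tumours. Of 6 pericyte and smooth muscle markers 2 were lower in Ivl tumours, and 1 was higher and 2 lower in K5/K14 tumours. Among 10 fibroblast markers none was called in Ivl tumours, and in K5/K14 tumours Fbln1 and Fbln2 were higher and Dcn and Pi16 lower. Of 5 macrophage markers 1 was lower in K5/K14 tumours. The part of these cell types in the collagen values was not tested.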

How the data were processed

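Read counts per gene of 19 bulk libraries were analysed. The authors, by their own methods, trimmed reads with Trim Galore after FastQC 0.11.8, aligned them with HISAT2 2.1.0 to GRCm38 and assigned them to genes with featureCounts of Subread 1.6.3, after which ComBat-seq was applied to remove a batch of sequencing. The deposited values are therefore estimated counts, already whole numbers and not scaled for library size. Plain counts had been foreseen, but edgeR was kept as planned.

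Genes were named with GENCODE mouse release 21 (34694 of 34807 identifiers matched). A gene was kept where 1 or more libraries held 5 counts or over. Counts were TMM scaled and tested with edgeR 4.0.16 (R 4.3.3, limma 3.58.1) by the two-sided quasi-likelihood F test with robust estimation and Benjamini-Hochberg adjustment over all genes. All 19 libraries entered each fit. K5 and K14 tumours were separate groups in the fit for K5 against K14 and 1 group in the fit for the other comparisons. An SE is the size of the log2 fold change over the root of its F value. RPKM are TMM-scaled CPM per kb of merged exons. Log2 CPM used a prior count of 2. The test was also run on simulated counts, drawn with the spread estimated from these data and without a batch adjustment. That run cannot show how the test behaves on batch-adjusted values. No pair of libraries of 1 group agreed within sampling noise (37 pairs, smallest chi-square per degree of freedom 25.9). Intervals and SEs cover neither the batch adjustment nor reads shared with overlapping genes.

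Named genes were the main skin collagens (15 chains) and in each comparison members whose adjusted p was under 0.05 and whose log2 change exceeded 1.5 either way, at most 10 per direction. Others are named where a class is broken down, and Col26a1 with its values was chosen after they were seen. Of other lists, called members with the largest changes are named (at most 3 per direction). Members and lists were chosen with earlier results of these data known. The set of 4 libraries was known from an earlier analysis and is not named as a batch in the labels. Alternatives were DESeq2 1.42.0 and its size factors, library totals, scaling to the geometric mean of 10 fibroblast markers (0.5 CPM added), other filters, the 15 libraries, a term for the set of 4, a replicate block, leaving out each library, and the longest transcript as length.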

Additional observations from a re-analysis of the deposited data

Results flagged for a closer look

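Within each group of the labels, a library was picked out where its gap to the next exceeded Dixon's critical value on the log2 CPM scale, for the genes named above. This was tested in 136 gene and group combinations and 10 cases in 6 libraries were picked out, where chance alone gives about 1 in 20. Ivl tumour 1 was lowest in 3 genes of the raised set. Col7a1 was 101 CPM in Ivl tumour 1 and 368 to 525 CPM in the others, Col13a1 was 3.1 CPM in Ivl tumour 1 and 13.7 to 20.4 CPM in the others, and Col25a1 was 0.523 CPM in Ivl tumour 1 and 2.81 to 5.37 CPM in the others. Among K14 tumours, Col15a1 was 56.2 CPM in K14 tumour 2 and 86.5 to 93.6 CPM in the others, Col5a3 was 68.5 CPM in K14 tumour 2 and 116 to 118 CPM in the others, Col6a6 was 2.33 CPM in K14 tumour 1 and 0.207 to 0.264 CPM in the others, and Col4a3 was 0.764 CPM in K14 tumour 1 and 0.455 to 0.461 CPM in the others. In skin, Col20a1 was 6.0 CPM in Skin 2 and 2.97 to 3.04 CPM in the others. Both other cases rest on a few reads: Col9a1 was 0.0209 CPM in K14 tumour 4 and Col19a1 was 0.101 CPM in K5 tumour 2, with 0 in the others of each group.

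The change against skin differed between Ivl and K5/K14 tumours, by the test of the difference, in 4 genes: by -1.82 log2 units (adjusted p = 0.00244) for Col12a1, -1.56 log2 units (adjusted p = 0.0188) for Col7a1, -0.83 log2 units (adjusted p = 0.0329) for Col18a1 and -1.32 log2 units (adjusted p = 0.0468) for Col6a4. Skin cancels in this difference, so it is the same test as that of Ivl against K5/K14 tumours above and no further result. Of the 4 only Col12a1 passed within the 15 libraries, and none with scaling to fibroblast markers.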

How the results depend on the processing

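No called gene changed sign under any alternative. Under other processing 342 values of called genes kept the call and 44 lost it, and without 1 library 723 kept and 94 lost it. Library totals ended the calls in K5/K14 tumours of Col5a2 (0.89), Col6a1 (0.73), Col23a1 (0.083) and Col24a1 (0.88), all still above 0. Library totals leave out the TMM factors, which were 1.43 to 1.66 in skin, 0.814 to 0.985 in K5/K14 tumours and 0.806 to 1.15 in Ivl tumours. By construction this lowers values against skin for genes in general. Which of the 2 scalings is nearer the tissue was not tested. Collagen genes lower in Ivl tumours than in skin (7) numbered 18 with library totals, 4 with fibroblast scaling, 13 with DESeq2, 12 with filterByExpr (which tested fewer genes), 18 within the 15 libraries, 16 with a term for the set of 4 and 0 with the replicate block. Those lower in K5/K14 tumours (13) numbered 21 with library totals. Between Ivl and K5/K14 tumours, the 4 lower genes became 0 with fibroblast scaling, 17 with DESeq2, 2 within the 15 libraries and 1 with the block, and the 0 higher genes became 2 with fibroblast scaling and 4 with DESeq2. Except for the 15 libraries, the share of all genes called under each alternative was not determined, so these counts may follow calls in general. Same-numbered libraries of different groups did not in general deviate together. The median correlation of their deviations was -0.051 over 25 pairs, of which 8 were over 0.1. For libraries of different number it was 0.0097 over 109 pairs, of which 33 were over 0.1. Such medians cannot show whether single libraries were paired. Leaving out 1 library gave 7 to 8 higher and 1 to 19 lower genes in Ivl tumours, 10 to 13 and 10 to 16 in K5/K14 tumours, 0 to 3 and 2 to 8 between the tumour groups, and 0 and 0 between K5 and K14 tumours. The count between the tumour groups moved by over 1.5 times to 7 lower without Ivl tumour 3, to 8 without skin 2, and to 2 without Ivl tumour 6, K14 tumour 3 or 4, or K5 tumour 1, 3, 4 or 5, and the higher count to 1 to 3 without Ivl tumour 1, 4 or 5 or K14 tumour 1.

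The median of all genes in the comparisons with skin moved from -0.46 and -0.60 to -1.13 and -1.4 with library totals, and that of collagen genes from -0.77 and -0.13 to -1.42 and -0.89. Genes that were not called changed sign as follows. Against skin in Ivl tumours, fibroblast scaling gave 0.27 for Col1a2, 0.13 for Col4a2, 0.64 for Col5a1, 1.4 for Col6a1 and 0.82 for Col6a2, library totals -0.0088 for Col17a1 and -0.38 for Col5a2, the 15 libraries -0.28 for Col5a2, the term for the set of 4 -0.20 for Col5a2 and the block 0.17 for Col6a1. In K5/K14 tumours, fibroblast scaling gave 1.02 for Col1a1 and 1.1 for Col3a1, library totals -0.21 for Col1a2, -0.63 for Col4a1, -0.24 for Col4a2 and -0.40 for Col6a3 and the block 0.12 for Col1a1 and 0.17 for Col3a1. Between the tumour groups, the 15 libraries gave -0.46 for Col14a1 and the term for the set of 4 -0.055 for Col14a1. Without 1 library the values ranged over -0.26 to 1.16 for Col5a2, -0.50 to 0.62 for Col6a1 and -1.05 to 0.11 for Col6a2 in Ivl tumours, over -0.48 to 0.41 for Col1a1, -0.51 to 0.60 for Col3a1, -0.18 to 0.57 for Col4a1 and -0.0074 to 1.14 for Col6a3 in K5/K14 tumours and over -0.20 to 1.0 for Col14a1 between them. With the longest transcript as length, the medians over libraries moved to 0.90 for Col1a1/Col1a2, 1.07 for Col3a1/Col1a1, 1.44 for Col4a1/Col4a2, 1.42 for Col6a1/Col6a2 and 79.2 RPKM for the FACIT sum.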
